A study of Mus musculus with 4 samples.

Results

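The genes described here encode the nuclear-encoded parts of the mitochondrial respiratory chain and ATP synthase, measured in E13.5 mouse embryonic kidneys. Members were all genes with a non-control array probe whose RefSeq accession carries a symbol of the Nduf, Sdha to Sdhd, Uqcr, Cyc1, Cox4 to Cox8 or Atp5 families, pseudogenes excepted. They came to 94 genes on 125 probes, and 92 of them were among the 25076 genes and unnamed sequences tested. The Sall1 knockout group consisted of 2 arrays and the control group of 2 arrays, each of total RNA from kidneys of a 129 and C57BL/6 hybrid background. Tamoxifen was given at E12.5, a day before dissection, to activate CreER, a tamoxifen-dependent Cre recombinase, and delete Sall1, a zinc finger transcription factor of kidney progenitors. The titles name CreER in the knockout samples and flox in the controls, while the treatment text of every sample names Sall1CreER. The sources used here do not say whether the controls carried CreER, so an effect of CreER cannot be told apart from the loss of Sall1. Nor do the labels tell whether each sample came from a separate embryo or litter, and p-values here cover only the spread among these 4 samples, which may be technical. In bulk tissue, fewer cells of a type and less RNA per cell cannot be told apart.

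The respiratory chain lies in the inner mitochondrial membrane. Complex I takes electrons from NADH and complex II from succinate, complex III passes them to cytochrome c, complex IV hands them to oxygen, and complex V uses the resulting proton gradient to make ATP. Most subunits are encoded in the nucleus and transcribed in nearly every cell, whereas a few complex IV subunits exist as pairs of isoforms, 1 found broadly and 1 found mainly in heart and skeletal muscle. The nuclear respiratory factor NRF1, ETS family factors such as GABPA, and YY1 are known regulators of these genes.

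The promoters of 4 members are shown because they carry the motifs of these factors, or, for Cox8b, lack them. They come from RefSeq (GRCm38.p6) and run 5′ to 3′ on the gene's strand, from 250 bases before the transcription start to 50 bases after it. Capitals mark matches on either strand to GCGCANGCG (NRF1), CCGGAAGT (ETS), AAGATGGC (YY1) or, in Cox8b, CAGCTG, an E-box of the kind bound by myogenic factors, which was looked for after the values had been seen.
Cox6a1 (chr5:115348909-115349208, minus strand): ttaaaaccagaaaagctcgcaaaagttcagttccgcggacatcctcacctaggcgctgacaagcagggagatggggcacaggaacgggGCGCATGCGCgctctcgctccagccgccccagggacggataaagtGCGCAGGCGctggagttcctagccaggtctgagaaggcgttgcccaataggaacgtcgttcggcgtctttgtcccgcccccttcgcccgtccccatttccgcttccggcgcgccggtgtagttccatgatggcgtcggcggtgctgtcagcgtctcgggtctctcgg
Cox8a (chr19:7217567-7217866, minus strand): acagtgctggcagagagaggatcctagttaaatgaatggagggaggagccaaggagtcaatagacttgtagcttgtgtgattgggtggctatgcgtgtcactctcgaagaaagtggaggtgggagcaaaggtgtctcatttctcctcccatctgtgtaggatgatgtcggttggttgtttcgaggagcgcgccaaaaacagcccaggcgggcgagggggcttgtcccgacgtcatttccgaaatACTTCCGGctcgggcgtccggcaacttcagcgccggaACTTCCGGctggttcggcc
Ndufs6 (chr13:73328433-73328732, minus strand): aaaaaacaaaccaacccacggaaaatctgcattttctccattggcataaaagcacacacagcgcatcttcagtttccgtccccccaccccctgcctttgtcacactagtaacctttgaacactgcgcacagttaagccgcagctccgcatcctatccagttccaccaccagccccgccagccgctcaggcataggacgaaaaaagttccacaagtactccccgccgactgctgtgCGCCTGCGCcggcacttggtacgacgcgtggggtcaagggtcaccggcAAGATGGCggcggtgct
Cox8b (chr7:140900397-140900696, minus strand): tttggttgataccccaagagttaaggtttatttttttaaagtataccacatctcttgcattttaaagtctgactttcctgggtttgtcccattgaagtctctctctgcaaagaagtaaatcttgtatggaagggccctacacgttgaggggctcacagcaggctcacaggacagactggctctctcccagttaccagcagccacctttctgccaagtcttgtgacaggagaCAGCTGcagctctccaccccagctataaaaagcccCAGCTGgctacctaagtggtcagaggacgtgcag
Cox6a1, the broadly expressed form of subunit VIa, held 3 matches to the NRF1 motif, 2 of them overlapping, all before the start. Cox8a, the broad form of subunit VIII, held 2 ETS motifs on the opposite strand, 1 across the start and 1 after it. Ndufs6, an accessory subunit of complex I, held an NRF1 match before the start and a YY1 match after it. Cox8b, the muscle form of subunit VIII, held none of these letters and 2 copies of CAGCTG, in a window with 2 CG pairs against 32 in that of Cox6a1.

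The RefSeq table matched 76 member genes, with 81 promoters. The NRF1 motif occurred in 23 of the 81 (28.4%), against 6.25% of all 32851 promoters and 8.58% of the 21263 of protein-coding genes. The YY1 motif occurred in 11 member promoters (13.6%), against 2.75% of all promoters. These 11 belonged to Atp5j, Atp5j2, Atp5pb, Ndufa3, Ndufa9, Ndufaf8, Ndufb8, Ndufc1, Ndufs4, Ndufs6 and Ndufs7. The ETS motif occurred in 5 (6.17%), against 3.89% of all promoters, and CAGCTG in 6 (7.41%), against 16.3%. At least 1 of the first 3 motifs stood in 36 member promoters (44.4%), against 11.8% of all and 15.3% of protein-coding promoters. Member promoters were also richer in G and C, with a median of 58.3% against 52.7% and a median of 20 CG pairs against 7, and the part of base composition in these shares was not tested. A match describes letters in this window and not a bound site.

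The arrays were close to each other. Signals are given as log2 of the processed signal over the array's 75th percentile, which was 534 and 521 on the knockout arrays and 597 and 547.5 on the control arrays. The arrays may have shared a single slide, and their number limits the precision. Sall1 itself stood at 1.03 and 1.07 in the knockout kidneys and 1.79 and 1.81 in the controls. Its difference was −0.75 ± 0.056 (SE, 2 arrays a group, limma adjusted p = 0.126), which passed the threshold with a trended robust prior (adjusted p = 0.00143) and normexp background correction (adjusted p = 0.0406). Whether its probe lies in the deleted part was not checked here. All 12 kidney markers passed the background filter. Among them Osr1 and Six2 of nephron progenitors differed by −0.86 and −0.51, Ret of the ureteric bud by −0.28 and Pax8, of the early nephron, by 0.37, all without overlap of the groups (limma adjusted p = 0.126, 0.250, 0.286 and 0.363). These were the largest differences of the 12. Without overlap, 3 of the 12 were higher (25%; all genes 21.5%) and 6 lower (50%; all genes 27.7%). Pax2, Wt1, Gata3 and Eya1 differed by 0.18, 0.060, 0.097 and 0.062, the last 2 with overlap. Lhx1, Wnt11, Foxd1 and Emx2 differed by −0.19, −0.26, −0.17 and −0.029, the last with overlap. Whether the markers of a cell type differed as a set was not tested.

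Respiratory chain genes differed little between Sall1 knockout and control kidneys a day after tamoxifen, with 2 exceptions, the muscle isoforms Cox6a2 and Cox8b. The median log2 difference (knockout minus control) over the 92 members was −0.014, with an interquartile range of −0.043 to 0.0088, against a median of −0.013 over all genes tested. The summed relative signal of the members was 3432 and 3448 in the knockout kidneys and 3377 and 3515 in the controls. The 2 knockout sums lay between the 2 control sums.

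No member passed an adjusted p under 0.05 in limma (lowest adjusted p = 0.257), and neither did any other gene tested (0% higher and 0% lower). Without adjustment, p was under 0.05 for 2 members with higher knockout values, Cox8b and Cox6a2, and for 0 with lower ones, against shares of 6.78% and 5.94% over all genes. No alternative processing brought a member past the threshold, and the lowest adjusted p in any of them was 0.0605, for Cox8b with the trended robust prior. Both knockout values lay above both control values in 12 members (13.0%; all genes 21.5%) and below them in 24 (26.1%; all genes 27.7%), and the groups overlapped in 56. This split turned with the scaling: it was 34 higher (37.0%; all genes 22.6%) and 10 lower (10.9%; all genes 25.5%) after quantile normalization, and 29 higher (31.5%; all genes 24.9%) and 9 lower (9.78%; all genes 23.3%) after cyclic loess. Some members were apart in the same direction under the main setting, normexp correction, median centring and both of those scalings. They numbered 7 higher (Cox6a2, Cox8b, Cox7a1, Cox7a2l, Cox8a, Ndufab1 and Uqcrh) and 9 lower (Ndufaf1, Ndufaf2, Ndufaf4, Ndufaf6, Ndufb6, Ndufs1, Ndufv1, Sdha and Uqcrc2). The share of all genes apart under every one of these settings was not computed, so these counts cannot be compared with it.

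The differences between groups were of about the size of those between replicates. The median absolute difference was 0.031 between the groups, 0.036 between the 2 knockout arrays and 0.061 between the 2 control arrays. Over all genes the same medians were 0.10, 0.090 and 0.094. The first of each 3 compares means of 2 arrays and the others compare single arrays, so that with no change the first would be the smaller. In 67 of the 92 members a gap between replicates of a group exceeded the difference between the groups. The difference was under 0.1 in 81 members (88.0%; all genes 49.5%). The 95% interval of the difference lay within 1.25-fold either way in 83 members (90.2%; all genes 44.5%) and within 1.5-fold in 89 (96.7%; all genes 77.5%). The 3 members with a wider interval were Cox6a2, Cox8b and Cox6b2. Members were also bright, with 67 of the 92 in the brightest 10% of the genes tested. Within that 10% the median difference was −0.020 for members and −0.041 for all genes, and 95.5% of members and 70.3% of all genes differed by under 0.1.

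**Figure D1:**
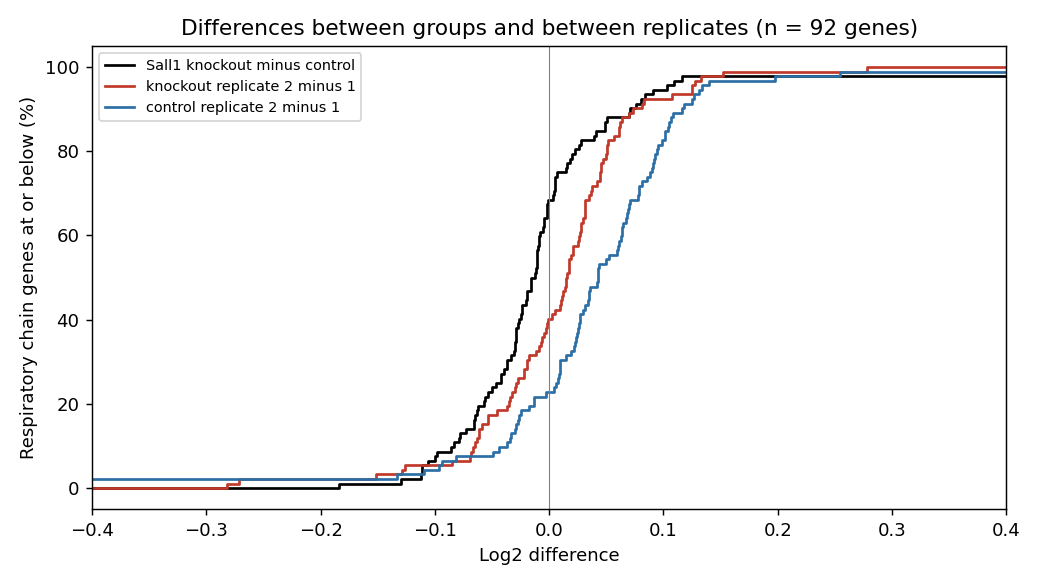
Cumulative share of the 92 respiratory chain genes (y axis, percent) at or below a log2 difference (x axis) between the groups and between replicates. The curve of knockout minus control is centred near 0 (median −0.014), and the curve of control replicate 2 minus 1 lies to its right (median 0.043). Cox6a2 and Cox8b lie beyond the axis in the group comparison.

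The curves of replicate differences show that the gap between the control arrays had a direction. Control replicate 2 was above control replicate 1 in 71 of the 92 members and knockout replicate 2 above knockout replicate 1 in 55. The median control gap was 0.043 in the members and 0.014 over all genes tested. Among the 2508 brightest genes and sequences it was 0.038, and among the 67 members in that set it was 0.060. The members' median control gap, 0.043, was larger than their median difference between the groups. Without control replicate 1 the members' median was −0.043, and without control replicate 2 it was 0.0014.

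**Figure D2:**
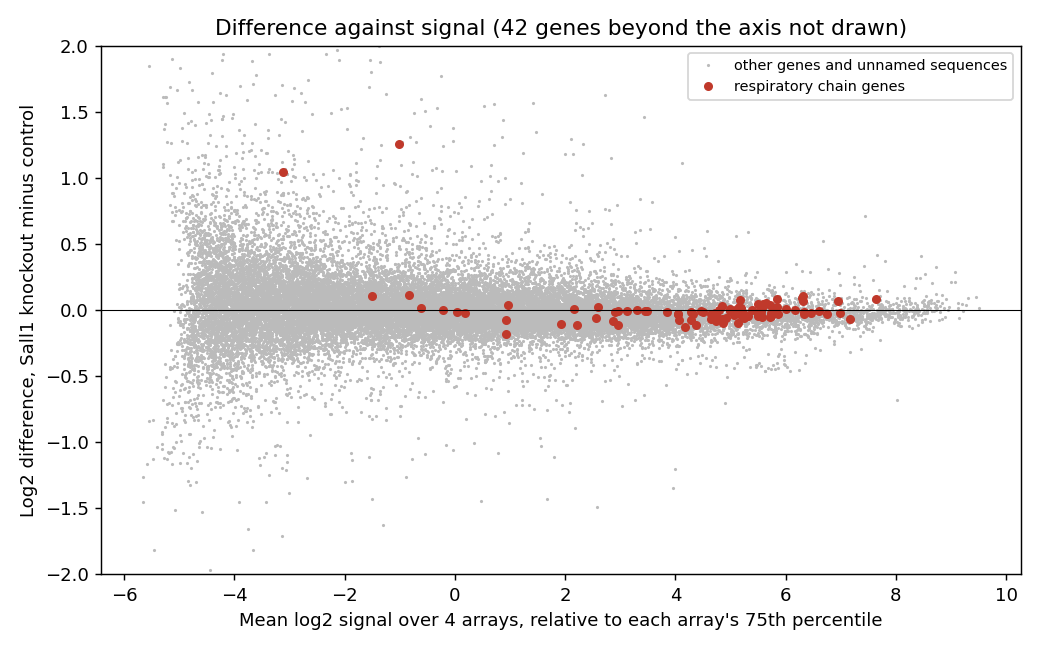
Log2 difference, knockout minus control (y axis), against the mean log2 relative signal over 4 arrays (x axis) for all genes and unnamed sequences (grey) and respiratory chain genes (red). Most members lie at the bright end within 0.1 of 0, and the 2 red points near and above 1 are Cox8b and Cox6a2. Beyond the axis lie 42 genes, none of them a member.

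Complex I, which oxidises NADH, was represented by 36 subunits. Their median difference was −0.025, and it turned to 0.016 after quantile normalization and 0.013 after cyclic loess. The groups were apart higher in 3 (8.33%; all genes 21.5%) and apart lower in 9 (25%; all genes 27.7%). The lowest difference was that of Ndufs1, the large iron-sulphur subunit of the NADH-oxidising arm. It stood at 4.15 and 4.08 in the knockout kidneys and 4.23 and 4.26 in the controls, so the groups did not overlap, and the difference was −0.13 ± 0.061 (SE, limma adjusted p = 0.462) and −0.078 after quantile normalization. Ndufv1, the flavin-carrying subunit that binds NADH, stood at 5.06 and 5.12 in the knockout kidneys and 5.18 and 5.20 in the controls (difference −0.10, limma adjusted p = 0.521). Ndufb5, a membrane-arm subunit, stood at 4.36 and 4.28 in the knockout kidneys and 4.44 and 4.42 in the controls, whereas its second probe overlapped between the groups and differed by 0.011. On the probes used, all 3 were lower on both knockout arrays, and none passed the test.

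The core subunit Ndufs7, which carries the last iron-sulphur cluster before quinone, lay closer to 0, with a difference of −0.0022 and overlap between the groups. The highest difference in the complex was that of Ndufb11, a membrane-arm subunit encoded on the X chromosome, at 5.68 and 5.65 in the knockout kidneys and 5.58 and 5.65 in the controls (difference 0.051). Ndufb8 was the subunit of complex I with the widest spread, at 5.69 and 5.42 in the knockout kidneys and 5.67 and 5.54 in the controls. Its 2 knockout values lay on either side of both control values.

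The 8 assembly factors with Ndufaf names, which help build complex I and are not part of the finished enzyme, had a median of −0.065. The groups were apart in 4 of them, all lower (50%; all genes 27.7%). Ndufaf6 stood at 0.77 and 0.90 in the knockout kidneys and 1.01 and 1.04 in the controls. Its difference of −0.18 ± 0.072 (SE, limma adjusted p = 0.423) was the lowest among the members, and it was −0.12 without knockout replicate 1. Ndufaf4 stood at 2.16 and 2.15 in the knockout kidneys and 2.28 and 2.25 in the controls. Ndufaf2 stood at 2.89 and 2.93 in the knockout kidneys and 3.02 and 3.02 in the controls. Ndufaf1 differed by −0.11 as well, whereas Ndufaf3, Ndufaf5, Ndufaf7 and Ndufaf8 overlapped between the groups, with differences from −0.024 to 0.014.

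Complex II, succinate dehydrogenase, also belongs to the citric acid cycle, and its 4 subunits had a median of −0.061. Sdha, the flavoprotein that oxidises succinate, stood at 4.24 and 4.25 in the knockout kidneys and 4.30 and 4.34 in the controls. Sdhd, a membrane anchor, stood at 4.80 and 4.83 in the knockout kidneys and 4.89 and 4.87 in the controls. In both genes the knockout arrays were the lower (differences −0.072 and −0.065, limma adjusted p = 0.603 and 0.636). Sdhb, the iron-sulphur subunit, and Sdhc, the other anchor, overlapped between the groups on the probes used (−0.056 and −0.0047). A second Sdhc probe did not overlap, at 3.24 and 3.26 in the knockout kidneys and 3.36 and 3.38 in the controls (difference −0.12).

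Complex III, the cytochrome bc1 complex, had 9 members tested and a median of −0.0041, which was 0.037 after quantile normalization and 0.035 after cyclic loess. Uqcrh, the hinge protein beside cytochrome c1, stood at 6.33 and 6.33 in the knockout kidneys and 6.20 and 6.29 in the controls (difference 0.091, limma adjusted p = 0.572). Uqcrc2, a core protein, stood at 4.68 and 4.69 in the knockout kidneys and 4.74 and 4.80 in the controls (difference −0.086, limma adjusted p = 0.567). These subunits of 1 complex lay on opposite sides of 0. Uqcrc1, the other core protein, differed by 0.0041, Uqcrfs1, the Rieske iron-sulphur protein, by −0.016, and Cyc1, cytochrome c1, by −0.065, all with overlap. Uqcrb had the lowest value in the complex (−0.098), and its other 2 probes gave −0.039 and 0.13, the last with control values of 4.53 and 3.95.

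Complex IV, cytochrome c oxidase, had 18 of 20 members tested and a median of 0.0053. Here Ndufa4 and its paralogue Ndufa4l2 were counted with complex IV, to which the protein Ndufa4, first described in complex I, is now assigned. Apart from the muscle isoforms, no difference exceeded 0.11. Cox5a and Cox5b, single-form subunits that bind the catalytic core, differed by −0.029 and −0.039. Cox7a2l, a relative of Cox7a that takes part in joining complexes III and IV, stood at 5.90 and 5.86 in the knockout kidneys and 5.79 and 5.82 in the controls (difference 0.081, limma adjusted p = 0.573). Ndufa4 overlapped between the groups at a difference of 0.0050, and Ndufa4l2, a hypoxia-induced relative, differed by 0.11 with overlap and by −0.018 without control replicate 1.

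Complex V, ATP synthase, had 17 members and a median of −0.011, which was 0.038 after quantile normalization and 0.026 after cyclic loess. The groups were apart higher in 2 (11.8%; all genes 21.5%) and apart lower in 6 (35.3%; all genes 27.7%). Atp5b, the catalytic beta subunit, stood at 7.15 and 7.11 in the knockout kidneys and 7.16 and 7.23 in the controls (difference −0.066). Atp5a1, the alpha subunit beside it in the same ring, stood at 6.38 and 6.31 in the knockout kidneys and 6.24 and 6.31 in the controls (difference 0.070). The differences of the alpha and beta subunits had opposite signs and neither passed the test, with limma adjusted p = 0.659 and 0.657. Atp5c1, the rotating gamma shaft, differed by −0.019. The 3 genes for the c subunit of the membrane ring, Atp5g1, Atp5g2 and Atp5g3, encode the same mature protein and differed by −0.029, −0.024 and −0.027. Atp5e, the small epsilon subunit, had the highest difference in the complex (0.10), with control replicate 1 at 6.16 and the other 3 arrays at 6.35 to 6.38.

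**Figure D3:**
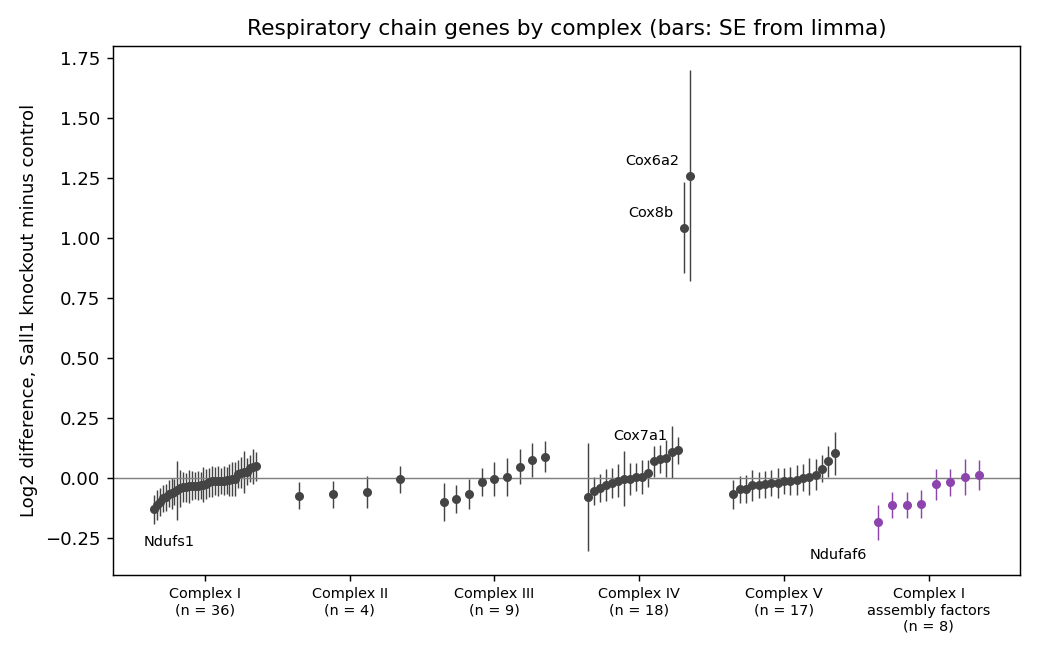
Log2 difference, knockout minus control (y axis), of each respiratory chain gene with its SE from limma, sorted within complexes I to V and the complex I assembly factors (x axis). Medians lie between −0.065 and 0.0053, and Cox6a2 (1.26) and Cox8b (1.04) stand apart from the other 90 genes.

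The isoform pairs of complex IV held the exceptions. Cox6a2, the heart and skeletal muscle form of subunit VIa, stood at −0.25 and −0.53 in the knockout kidneys and −1.06 and −2.23 in the controls. Both knockout arrays were above both controls, and the controls differed from each other by 1.17. The difference was 1.26 ± 0.44 (SE, 2.39-fold, limma adjusted p = 0.391), and it was 0.68 without control replicate 2 and 1.84 without control replicate 1. Its broad counterpart Cox6a1 stood at 7.63 and 7.74 in the knockout kidneys and 7.55 and 7.66 in the controls, with overlap.

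Cox8b, the muscle form of subunit VIII whose promoter is shown above, stood at −2.54 and −2.66 in the knockout kidneys and −3.40 and −3.89 in the controls. The groups did not overlap, and the difference was 1.04 ± 0.19 (SE, 2.06-fold, limma adjusted p = 0.257). With normexp correction it was 0.59. The broad form Cox8a, with its ETS motifs, stood at 6.99 and 6.99 in the knockout kidneys and 6.87 and 6.97 in the controls (difference 0.071).

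Cox7a1, the muscle form of subunit VIIa, stood at −0.79 and −0.74 in the knockout kidneys and −0.90 and −0.87 in the controls. The direction was that of Cox6a2 and Cox8b, but the difference was only 0.12 ± 0.057 (SE, limma adjusted p = 0.473). Cox7a2, the broad form, was at 4.68 and 4.73 in the knockout kidneys and 4.78 and 4.74 in the controls (difference −0.054). Differences of Cox7a1 and Cox7a2 from each other were not tested.

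The remaining isoforms did not separate the groups. Cox4i2, the lung form of subunit IV, stood at −0.36 and −0.083 in the knockout kidneys and −0.22 and −0.21 in the controls. Cox4i1, the broad form, differed by −0.020. Cox6b2, a form known from testis, stood at 0.82 and 0.95 in the knockout kidneys and 0.67 and 1.25 in the controls, so that the controls lay on either side of both knockout arrays. Cox6b1 and Cox7b, found broadly, differed by −0.0091 and −0.0014. Cox7b2 and Cox8c, also known from testis, did not rise well above background on any of the arrays and were not tested.

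Markers of striated muscle differed in the same direction as Cox6a2 and Cox8b. Of 18 such markers, 17 were tested, and Ckm, muscle creatine kinase, was not well above background. All 17 had a difference above 0, with a median of 1.25, and 15 were apart higher (88.2%; all genes 21.5%). None passed an adjusted p under 0.05 in limma, and 4 were higher at an unadjusted p under 0.05 (all genes 6.78%). Their summed relative signal was 112 and 76.6 in the knockout kidneys and 63.8 and 27.7 in the controls. The order of the arrays, from knockout replicate 1 down through knockout replicate 2 and control replicate 1 to control replicate 2, was that of 15 of the 17 markers. Among the 92 members the same order held for 2, Cox6a2 and Cox8b, and the share of all genes in this order was not computed. Myh8, a fetal myosin heavy chain, stood at 1.57 and 1.05 in the knockout kidneys and 0.66 and −1.14 in the controls. The part of muscle RNA in the differences of Cox6a2 and Cox8b was not tested.

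**Figure D4:**
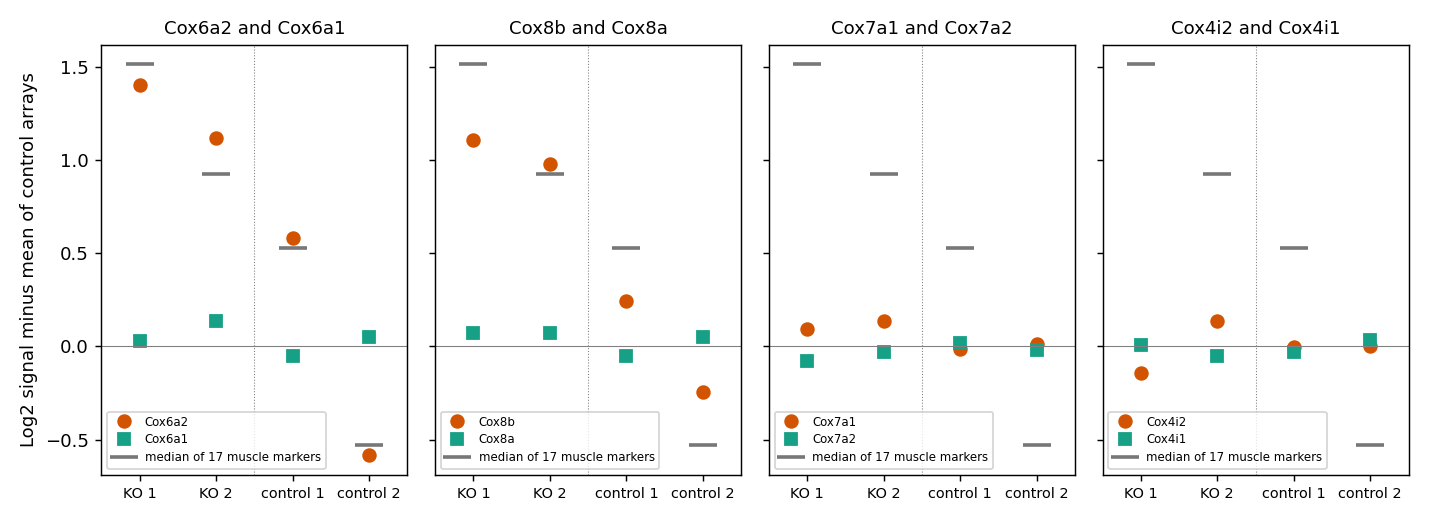
Log2 signal of complex IV isoforms on each array, minus the mean of the control arrays (y axis), for knockout (KO) and control arrays (x axis). Orange circles are Cox6a2, Cox8b, Cox7a1 and Cox4i2, green squares their broad counterparts, and grey dashes the median of 17 muscle markers, which falls in the same array order as Cox6a2 and Cox8b.

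Markers of other cells also differed between arrays. All 12 liver markers were apart higher (all genes 21.5%), with summed signals of 43.9 and 40.6 in the knockout kidneys and 14.0 and 20.3 in the controls. The 9 macrophage markers tested had a median of 0.57 and the 10 proximal tubule markers a median of 0.46. Erythroid markers differed more between replicates than between groups, at 959 and 1731 in the knockout kidneys and 914 and 1590 in the controls. Both second replicates were above both first replicates in 10 of the 11 erythroid markers and in 29 of the 92 respiratory chain genes. The share of all genes with that pattern was not computed. The 12 kidney markers had a median of −0.10 and the 12 neuronal markers one of −0.12. The part of these cells in the members' values was not tested.

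Other genes of the mitochondrion were described with the same fit, and none of them passed an adjusted p under 0.05 in limma. Assembly factors of complexes I to V with other names had a median of −0.036 over 33 genes. Among them 2 were apart higher (6.06%; all genes 21.5%) and 14 apart lower (42.4%; all genes 27.7%). An unadjusted p under 0.05 was reached by 1, with higher knockout values (all genes 6.78%). That gene was Ttc19, which acts in the maturation of complex III, at 0.96 and 1.02 in the knockout kidneys and 0.83 and 0.77 in the controls (difference 0.19, limma adjusted p = 0.374). Sco1, a copper chaperone of complex IV, stood at −1.03 and −1.05 in the knockout kidneys and −0.92 and −0.86 in the controls (difference −0.15, limma adjusted p = 0.427). Cycs, the somatic cytochrome c that carries electrons from complex III to complex IV, differed by −0.099. Cytochrome c of the testis, Cyct, was not well above background.

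Carriers, import receptors and chaperones of the mitochondrion had a median of −0.091 over 12 genes, with 0 apart higher, 10 apart lower (all genes 27.7%) and 3 lower at an unadjusted p under 0.05 (all genes 5.94%). In the brightest 10% of all genes the median was −0.041 and 41.0% were apart lower. Slc25a5, an ADP/ATP carrier, stood at 4.15 and 4.15 in the knockout kidneys and 4.33 and 4.40 in the controls (difference −0.21, limma adjusted p = 0.348). Timm23, the channel of the inner membrane translocase, stood at 4.41 and 4.45 in the knockout kidneys and 4.62 and 4.60 in the controls (difference −0.18, limma adjusted p = 0.367). In both genes the knockout arrays were the lower without overlap. No respiratory chain subunit was lower by as much, the lowest being Ndufs1 at −0.13. The citric acid cycle had a median of −0.037 over 13 genes, 1 apart higher (7.69%; all genes 21.5%) and 6 apart lower (46.2%; all genes 27.7%). Suclg2, the GTP-forming subunit of succinyl-CoA ligase, stood at 1.17 and 1.29 in the knockout kidneys and 1.53 and 1.52 in the controls (difference −0.29, limma adjusted p = 0.318), and Dld, the shared dehydrogenase subunit, differed by −0.12.

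Regulators of mitochondrial biogenesis had a median of −0.019 over 18 genes. In each direction 5 were apart (27.8%; all genes 21.5% higher and 27.7% lower). Esrrg, an orphan nuclear receptor that drives oxidative genes in heart and kidney, stood at −2.54 and −2.69 in the knockout kidneys and −3.41 and −3.24 in the controls (difference 0.71 ± 0.098, SE, limma adjusted p = 0.213). Ppargc1b, a coactivator of such receptors, stood at −2.07 and −2.07 in the knockout kidneys and −2.45 and −2.48 in the controls (difference 0.39 ± 0.055, SE, limma adjusted p = 0.216). Both were higher on both knockout arrays, and both were at an unadjusted p under 0.05. Ppargc1a, the related coactivator, differed by −0.14, Nrf1 by −0.0043, Gabpa by −0.082 and Yy1 by 0.044, and the last 3 are the factors whose motifs were counted in the promoters. Of 4 uncoupling proteins tested, Ucp2 and Ucp3 differed by 0.19 and 0.17 with overlap, and Ucp2 by −0.013 without control replicate 1. Ucp1 of brown fat was not well above background. The subunits encoded in mitochondrial DNA were not analysed here.

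**Figure D5:**
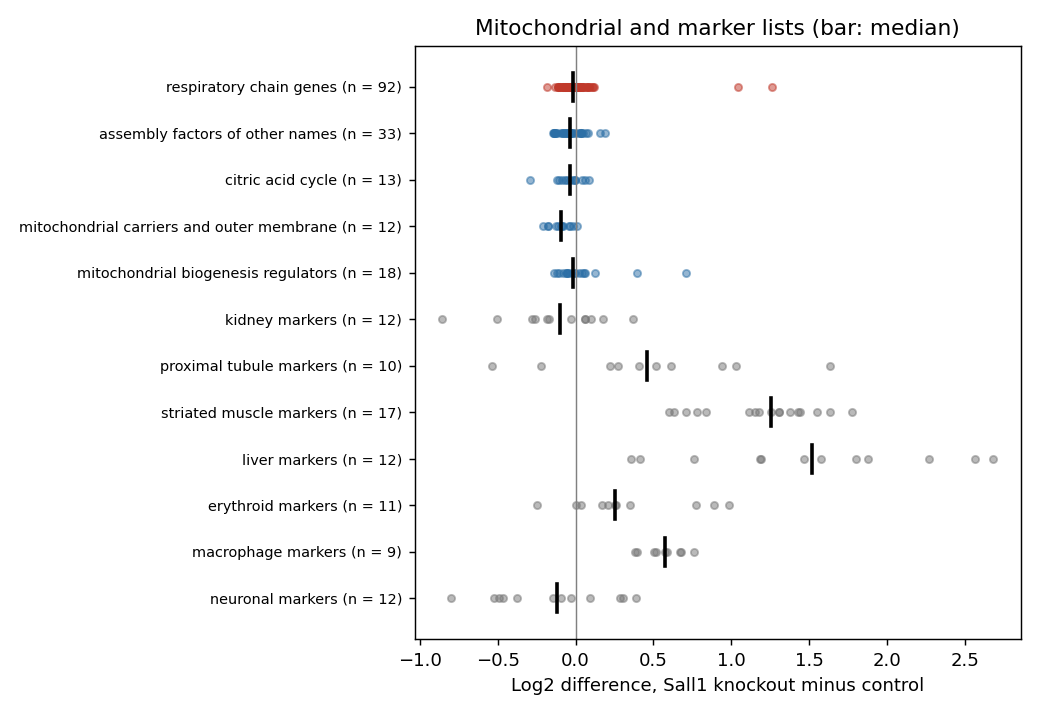
Log2 difference, knockout minus control (x axis), of each tested gene in the respiratory chain (red), 4 other mitochondrial lists (blue) and cell type markers (grey), with black bars at the medians. The medians of the 5 mitochondrial lists drawn lie between −0.091 and −0.014, while cytochrome c (1 gene) and the 4 uncoupling proteins are not drawn, and the muscle and liver medians are 1.25 and 1.52.

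Probes of the same member mostly gave like differences between the groups, while their signals could lie far apart. The probes of Ndufb11, for example, had knockout means of 5.67 and −1.49. For 24 members with several probes, 30 further probes were well above background on all arrays, and their difference departed from that of the probe used by a median of 0.028 and by under 0.1 in 25 cases. The largest departure was the 0.23 of Uqcrb. A further probe gave the opposite sign for several members, among them Ndufb11 (−0.057), Cox8a (−0.039), Ndufb5 (0.011) and Cox7c (−0.066). It gave a larger difference of the same sign for Sdhc (−0.12) and Atp5c1 (−0.078), among others. For Uqcrh (0.019) and Ndufaf4 (−0.036), among others, it gave a smaller difference of the same sign. Pseudogene copies that could share signal with a probe were not checked, because probe sequences are not among the columns of the files used here.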

How the data were processed

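Total RNA of the 4 samples was labelled with Cy3 and hybridised to 1-colour Agilent arrays (design 028005, built on mm9), per the labels and the file headers. The deposited values are linear intensities (processed signals) that Agilent Feature Extraction 10.7.3.1 had corrected for background and spatial trends, per the file headers, with no scaling between arrays. The authors' deposited value table holds the same intensity within 1% for the 55249 probes with a single spot.

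Control spots and marked spots (147 to 174 per array) were left out, signals were divided by each array's 75th percentile and set to log2, and spots of a probe were averaged. The filter kept 34253 probes that were well above background on both knockout or both control arrays. Symbols came from RefSeq accessions matched without versions to GRCm38.p6, for 26413 of 55681 probes. The probe with the highest mean stood for a gene. Pearson's r over the genes and sequences tested, which are not independent, was 0.9964 between knockout arrays, 0.9952 between control arrays and 0.9932 to 0.9945 between groups. No spot was saturated, and 60.6% to 64.2% of spots per array were well above background.

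Differences were tested in R 4.3.3 with limma 3.58.1 (linear model and default empirical Bayes prior, two-sided, 2 residual and 1.79 prior degrees of freedom), with Benjamini-Hochberg adjustment over all 25076 genes and sequences and a threshold of 0.05. The script was tested on simulated data. Samples were grouped by genotype label and numbered by accession order. The members and lists were chosen with earlier results of these data known, so counts and medians of lists are descriptions without a test. Named by rule were Sall1, 6 members per direction with the smallest p, the extreme members of each complex, fixed isoforms and core subunits, and the leading genes of other lists. One gene that the rule names is not reported here. Members printed beyond that rule (those named only in counts, the promoter examples, Ndufb8, Ndufaf3, Ndufaf7, Ndufaf8, Ppargc1a, Nrf1, Gabpa, Yy1 and Ckm) were chosen after their values were seen. Kidney markers other than Osr1, Six2, Ret and Pax8 were also printed beyond that rule. Promoters were searched in Python 3.11.15. Alternatives were normexp correction (offset 50, on the median spot signal), quantile, median and cyclic loess scaling, other filters and probe rules, marked spots kept, a trended robust prior, array weights, the deposited value table, other thresholds, and each array left out in turn.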

Additional observations from a re-analysis of the deposited data

How the results depend on the processing

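No member passed the adjusted threshold under any alternative, and 2 did so at an unadjusted p under 0.05. Scaling decided the small common shift. The members' median was 0.024 after quantile normalization, 0.022 after cyclic loess and −0.026 after median centring, and −0.043 to 0.0014 with 1 array left out. Members apart numbered 34 higher and 10 lower after quantile normalization (all genes 22.6% and 25.5%) and 29 and 9 after cyclic loess (all genes 24.9% and 23.3%). With 1 array left out they numbered 15 to 38 higher and 31 to 61 lower, where 1 array on a side makes separation easier by construction. The shares of all genes with 1 array left out are not given here, so these counts cannot be compared with them. The complex I median was 0.016, 0.013 and −0.037 after quantile, cyclic loess and median scaling, the complex II median −0.015 and −0.022 after the first 2, the complex III median 0.037 and 0.035, the complex IV median 0.045 and 0.043, and the complex V median 0.038 after quantile normalization. With 1 array left out, the medians ranged from −0.046 to −0.0029 for complex I, −0.073 to −0.029 for complex II, −0.034 to 0.0065 for complex III and −0.012 to 0.055 for complex IV. Why scalings differ was not tested. Sall1 passed the threshold with normexp correction (−0.72) and the trended robust prior (−0.75).

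A direction was read only where a difference exceeded its SE. It turned without control replicate 1 for Gata1, Ndufa4l2 and Ucp2 and without control replicate 2 for Dbh. With 1 array left out, Gata1 ranged from −0.087 to 1.63, Ndufa4l2 from −0.018 to 0.24, Ucp2 from −0.013 to 0.40 and Dbh from −1.17 to 0.12. Where 1 array of a group remained, it was taken to vary like the other group. No paired analysis was possible because the labels share no replicate numbers between groups. With 2 arrays a group, the median unadjusted 95% interval of a member reached 0.17 either side on the log2 scale. Smaller differences were not detectable for most members even before adjustment. After adjustment larger ones were not called either, such as −0.75 for Sall1 (limma adjusted p = 0.126) and 1.04 for Cox8b (limma adjusted p = 0.257). Dim probes such as Cox8b's depend on the background correction.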
